A study of Mus musculus with 8 samples.

Results

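Chemokine receptors were examined in macrophages of epididymal white adipose tissue (eWAT) that did or did not carry FCGR4, an Fcγ receptor, on their surface. The 9 genes *Ccr1*, *Ccr2*, *Ccr3*, *Ccr7*, *Ccrl2*, *Cx3cr1*, *Cxcr2*, *Cxcr3*, and *Cxcr4* were taken by symbol from a list, with no measured value in the rule, and all 9 were found among the 54146 genes of the count table. All 9 reached 10 counts in 4 or more of the 8 libraries and so were among the 17095 genes tested. The question put to the data was whether the 2 macrophage populations differed in these receptors, which guide leukocytes between tissues.

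Each of 4 mice gave an FCGR4+ and an FCGR4- library, 8 in all. All mice carried the label C57Bl6 and had eaten a high fat diet freely for 24 weeks, followed by 2 weeks of short-term caloric restriction (stCR) with 30% less food, so that no library came from an unrestricted mouse. The study describes the diet as high in fat and cholesterol and its mice as male. Both populations had passed the same gate (CD45+, CD3-, B220-, Ly6G-, SiglecF-, CD11b+) and were then split by antibody into Fcgr4 positive and Fcgr4 negative cells, so the gate names no macrophage protein beyond CD11b and would also admit other CD11b+ cells.

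Chemokine receptors are membrane proteins that couple to inhibitory G proteins and turn a gradient of secreted chemokine into directed movement. CCR2 brings classical monocytes from blood into inflamed tissue, including obese fat, CX3CR1 is a mark of patrolling monocytes and of many tissue macrophages, and CXCR4 keeps cells near sources of CXCL12. CCR7 takes mature dendritic cells and lymphocytes toward lymph nodes, CXCR2 is the main chemokine receptor of neutrophils, CXCR3 is typical of activated T and NK cells, and CCR3 of eosinophils and basophils. CCRL2 is an atypical member that binds chemerin and does not signal as the others do.

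Total counts per library lay between 35992794 and 66856746, so that 3 counts, taken as the floor, corresponded to 0.0440 to 0.0883 normalized CPM (counts scaled to library size). *Fcgr4* served as the check of the sort and was 1.61 higher on the log2 scale in FCGR4+ cells (SE 0.173, edgeR adjusted P = 0.0162). Macrophage genes were abundant in both populations, with 13 genes (*Adgre1*, *Csf1r*, *Cd68*, and others) summing to 30200 to 54643 normalized CPM in FCGR4+ and 22842 to 47887 in FCGR4- libraries. Most of this sum was 1 gene, *Lyz2*, with a mean of 23011 in FCGR4+ and 21429 in FCGR4- libraries. Genes of other leukocytes moved with the populations as well and are given beside the receptors they touch. Mice 1 and 2 and mice 3 and 4 carried different animal ID prefixes.

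Of these receptors, 2 were lower in FCGR4+ cells. Of the 9 genes, 2 (*Ccr7* and *Cxcr2*) passed an adjusted P of 0.1 in the paired edgeR fit, both lower, where 1.19% of all tested genes were called lower, 0.0819% higher, and 1.27% in either direction. None of the 9 was called higher by edgeR or by DESeq2, and 0 of 9 reached an unadjusted P under 0.05 in that direction by either tool, against 3 of 9 in the lower direction by both. The median log2 fold change of the 9 was -0.35, with 3 above and 6 below 0, beside -0.003 over all genes tested. By sign alone, 3 of 9 were lower in FCGR4+ cells in 4 of 4 mice, as 10.5% of tested genes were, and 0 of 9 were higher in 4 of 4 mice, as 8.38% were. Only *Ccr7* among the 9 had every FCGR4+ library below every FCGR4- library, a pattern shown by 3.02% of tested genes, and none had the opposite one, shown by 0.883%. DESeq2 with the paired model called 3 of 9, adding *Cxcr3*, where it called 5.99% of all genes.

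**Figure D1:**
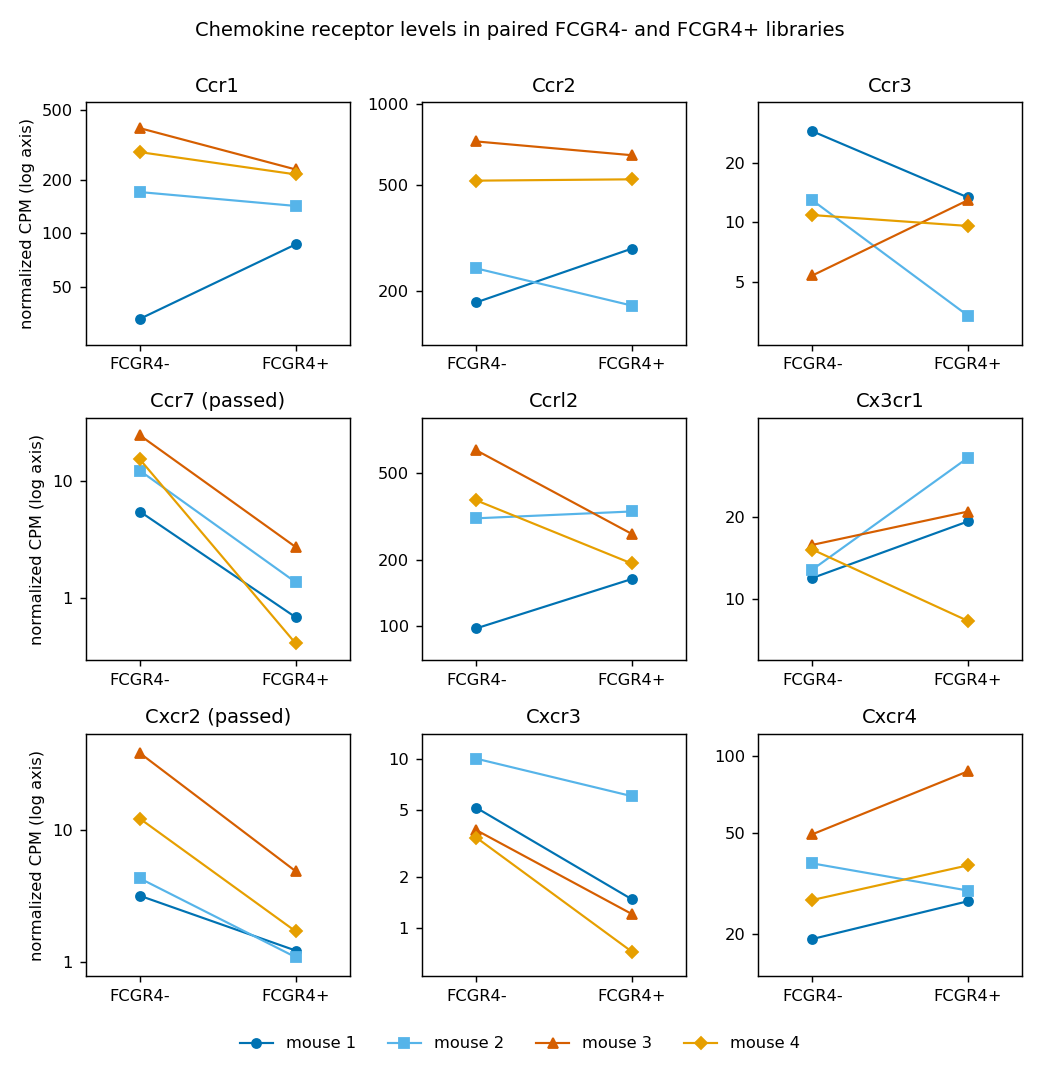
Normalized CPM of the 9 chemokine receptor genes on a log axis (each panel has its own range), with 1 line per mouse from its FCGR4- to its FCGR4+ library. All 4 lines fall for Ccr7, Cxcr2, and Cxcr3, and in each other panel at least 1 line rises and at least 1 falls.

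*Ccr7* showed the widest gap. The gene lies on the minus strand of chromosome 11 of mm10 (99144196 to 99155077). Its normalized CPM in FCGR4+ libraries of mice 1 to 4 were 0.691, 1.37, 2.73, and 0.415, and in FCGR4- libraries 5.45, 12.1, 24.2, and 15.1. The highest FCGR4+ value lay under the lowest FCGR4- value, and mouse 3 was the highest in both populations. The mean was 1.30 ± 1.03 normalized CPM (SD, n = 4) in FCGR4+ and 14.2 ± 7.78 (SD, n = 4) in FCGR4- cells, a log2 fold change of -3.54 (SE 0.400, edgeR adjusted P = 0.0195), or an 11.6-fold lower level. These values rest on 298 counts over the FCGR4+ libraries and 3137 over the FCGR4- libraries. In a bulk library, fewer cells of a type that carries the transcript and less transcript per cell cannot be told apart, here and for each gene below. With each mouse left out, the log2 fold change lay between -3.72 and -3.09 and passed in 4 of 4 fits, but it did not pass without the mouse block (edgeR adjusted P = 0.107). Mice 1 and 2 alone gave -3.06, which passed (edgeR adjusted P = 0.0271), and mice 3 and 4 alone gave -4.04, which did not (adjusted P = 0.125).

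CCR7 is carried by mature dendritic cells, so their genes are given beside it. Of 12 genes of mature migratory dendritic cells, 11 were tested and 9 of these were lower in FCGR4+ cells in 4 of 4 mice. Of the 11, edgeR called 2 and DESeq2 called 6. *Fscn1*, an actin-bundling protein of mature dendritic cells, had a log2 fold change of -2.19 (edgeR adjusted P = 0.0427), and *Ccl22*, a ligand of CCR4, one of -1.89 (adjusted P = 0.0636). The 12 genes summed to 94.5 to 126.6 normalized CPM in FCGR4+ and 131.3 to 206.8 in FCGR4- libraries, and none of the 12 was at 0 in a whole population. Of 10 conventional dendritic cell genes, *Flt3*, the receptor of a dendritic cell growth factor (log2 fold change -3.29, edgeR adjusted P = 0.0516), and the lectin *Cd209a* (-2.60, adjusted P = 0.0252) passed by edgeR, DESeq2 called 5 of 10, and 6 of 10 were lower in 4 of 4 mice. Their sums of 376.1 to 473.9 and 417.0 to 501.3 normalized CPM consisted mostly of *Irf8* (mean 228.8 in FCGR4+ and 231.5 in FCGR4- cells) and *Clec10a* (164.3 and 149.6), at log2 fold changes of -0.03 and 0.24, neither of which passed. The rarer *Itgae*, an integrin chain, had 0.0504 (at the floor of 3 counts) against 2.09 normalized CPM and did not pass by edgeR (adjusted P = 0.106) but did by DESeq2 (4.52e-07). The part of these cells in the *Ccr7* difference was not tested. Over the 8 libraries, the genes most like *Ccr7* in log2 CPM were *Mmp9*, a matrix protease (Pearson r = 0.991), *Cercam* (r = 0.988), and *Rab15* (r = 0.943), among 13495 genes compared. *Mmp9* is also on the list of neutrophil genes given with *Cxcr2* and was called lower in FCGR4+ cells (log2 fold change -2.94, edgeR adjusted P = 0.0516). *Ccr7* and *Cxcr2* themselves had r = 0.859, and the part of neutrophil transcripts in the *Ccr7* difference was not tested. These correlations are descriptions of 8 libraries that share 4 mice, with no test.

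*Cxcr2* was lower in FCGR4+ cells of each mouse, though the populations overlapped. Its normalized CPM in FCGR4+ libraries of mice 1 to 4 were 1.21, 1.08, 4.89, and 1.70, and in FCGR4- libraries 3.17, 4.30, 38.7, and 12.3. Mouse 3 stood highest in both populations, and its FCGR4+ value exceeded the FCGR4- values of mice 1 and 2. Means were 2.22 ± 1.80 and 14.6 ± 16.6 normalized CPM (SD, n = 4 each), and the log2 fold change was -2.33 (SE 0.315, edgeR adjusted P = 0.0396), a 5.02-fold lower level. It did not pass without mouse 4 (log2 fold change -2.14, edgeR adjusted P = 0.124) or without the mouse block (adjusted P = 0.443). The call was made in mice 3 and 4 alone (-2.94, adjusted P = 0.0695) and not in mice 1 and 2 alone (-1.68, adjusted P = 0.278), and the difference between these was not tested. Of the 50-base words of its transcripts, 6.68% also occur in transcripts of other genes, and the counting took a multimapping read pair at each of its places.

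The bases before the start of *Cxcr2* are shown because it is the called receptor for which the RefSeq promoter table (build GRCm38.p6) had an entry, beside those of *Ccr1* and *Cxcr4*, which did not pass. The table held 8 of the 9 receptors, all but *Ccr7*. Each line gives 150 bases 5′ to 3′ on the gene's strand, ending just before the outermost annotated start, with matches to GAGGAA (the core bound by PU.1, a factor of myeloid cells) and to TATAAA in capitals, either strand.
Cxcr2, chr1:74153839-74153988, plus strand: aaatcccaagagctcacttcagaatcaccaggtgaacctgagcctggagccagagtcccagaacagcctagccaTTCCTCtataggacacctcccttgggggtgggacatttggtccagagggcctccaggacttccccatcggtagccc
Ccr1, chr9:123968693-123968842, minus strand: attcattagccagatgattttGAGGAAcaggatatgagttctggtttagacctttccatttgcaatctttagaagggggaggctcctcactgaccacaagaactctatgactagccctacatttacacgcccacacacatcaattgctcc
Cxcr4, chr1:128592300-128592449, minus strand: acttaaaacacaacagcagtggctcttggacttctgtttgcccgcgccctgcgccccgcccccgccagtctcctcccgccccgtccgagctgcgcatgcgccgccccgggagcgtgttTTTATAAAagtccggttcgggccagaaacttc

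In *Cxcr2* the letters lie on the opposite strand (TTCCTC) and in *Ccr1* on the gene's own strand. In *Cxcr4* the capitals hold overlapping TATAAA matches of both strands. Over windows of 300 bases (250 before and 50 from the start), GAGGAA occurred in 4 of 8 receptor promoters (*Ccr1*, *Ccr3*, *Cxcr2*, and *Cxcr3*) and in 28.3% of the 32851 promoters of the table, so the called *Cxcr2* shared it with receptors that did not pass. TATAAA occurred in 1 of 8 and in 13.6% of all. The AP-1 letters TGANTCA were found in *Ccr3* alone (7.81% of all promoters), and the C/EBP letters TTGCNNAA (10.8%) in none of the 8 windows. A match describes letters in a window and not a bound site.

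Neutrophil genes moved in the same direction as *Cxcr2*. Of 15 such genes, 13 were tested, 13 of 13 had a log2 fold change below 0, and 8 passed, all lower in FCGR4+ cells (*S100a8*, *S100a9*, *Retnlg*, *Mmp9*, *Mmp8*, *Lcn2*, *Il1r2*, and *G0s2*). *S100a8*, a subunit of calprotectin, fell by 2.12 on the log2 scale (edgeR adjusted P = 0.00323). The 15 genes summed to 137.5 to 618.9 normalized CPM in FCGR4+ and 444.0 to 2895 in FCGR4- libraries, with mouse 3 highest in both populations, as for *Cxcr2*. The log2 ratio of the sums was -1.69, -1.68, -2.23, and -2.12 in mice 1 to 4, beside per-mouse log2 ratios of *Cxcr2* of -1.36, -1.96, -2.98, and -2.82. No gene of the list was at 0 in a whole population, and *Ly6g*, whose protein was gated out, had 121 counts over FCGR4+ and 482 over FCGR4- libraries. The genes most like *Cxcr2* over the 8 libraries were *Il1f9* (r = 0.979), *Lcn2* (r = 0.979), and *Mrgpra2b* (r = 0.976). The part of neutrophil transcripts in the *Cxcr2* difference was not tested.

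*Cxcr3*, the receptor of CXCL9, CXCL10, and CXCL11, lay at the threshold. Its normalized CPM in FCGR4+ libraries of mice 1 to 4 were 1.48, 6.05, 1.21, and 0.726, and in FCGR4- libraries 5.17, 10.1, 3.81, and 3.44. Each mouse was lower in FCGR4+ cells, and mouse 2, the highest in both, made the populations overlap. The log2 fold change was -1.59 (SE 0.312, edgeR adjusted P = 0.101), which did not pass. It was called lower in 5 of 13 alternative fits, by DESeq2 (adjusted P = 4.26e-04), with no filter on low counts (0.00286), with 10 counts in every library (0.0540), by edgeR's newer method (0.0549), and with scaling by library size alone (0.0952). T and NK cell genes stood beside it, though the CD3- gate would remove T cells. Of 14 tested, 7 were called lower (*Cd3d*, *Cd3g*, *Trac*, *Trbc2*, *Nkg7*, *Klrd1*, and *Gzmb*) and 13 were lower in 4 of 4 mice. Their 16 genes summed to 4.46 to 13.9 normalized CPM in FCGR4+ and 22.6 to 72.9 in FCGR4- libraries, with none at 0 in a whole population. The log2 ratio of these sums was -2.48, -2.39, -2.07, and -2.34 in mice 1 to 4, beside -1.78, -0.73, -1.62, and -2.19 for *Cxcr3*, and their part was not tested. *Kcnab2* (r = 0.962), *Kansl3* (r = 0.958), and *Dnajc14* (r = 0.949) were the genes most like *Cxcr3*.

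The monocyte receptor *Ccr2* did not differ beyond its error. Its normalized CPM were 287.9, 176.4, 643.6, and 522.9 in FCGR4+ libraries of mice 1 to 4 and 181.3, 243.0, 724.6, and 517.0 in FCGR4- libraries. Both populations spanned nearly the same range. The log2 fold change was 0.01 (SE 0.197, edgeR adjusted P = 0.989), with 2 mice higher and 2 lower. Every library of mice 3 and 4 lay above every library of mice 1 and 2, with a mean 2.71-fold higher, a pattern shown by 8.49% of tested genes. Of the 50-base words of *Ccr2*, 1.91% also occur in transcripts of other genes.

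*Ccr1*, a receptor of CCL3, CCL5, CCL6, and CCL9 on monocytes and macrophages, split in the same way between the pairs of mice. Its normalized CPM were 86.6, 143.0, 230.1, and 215.7 in FCGR4+ and 32.9, 171.3, 393.7, and 288.2 in FCGR4- libraries of mice 1 to 4. Mouse 1 was higher in FCGR4+ cells and the 3 others lower, and the mean was 281.9 in mice 3 and 4 and 108.4 in mice 1 and 2, with no overlap of libraries. The log2 fold change was -0.04 (SE 0.343, edgeR adjusted P = 0.975), and its sign turned when mouse 2, 3, or 4 was left out, with none of these past the threshold. *Pilra*, an inhibitory receptor of myeloid cells, followed *Ccr1* most closely over the libraries (r = 0.993), before *B3gnt5* (r = 0.979) and *Fam71f2* (r = 0.975). For *Ccr2*, *C920009B18Rik* (r = 0.972) and *Ifrd1* (r = 0.969) were among the 3 closest. Differences between mice enter these values as well as those between populations.

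Classical monocyte genes, which mark the cells that CCR2 recruits, lay below 0 on the log2 scale in 9 of 10. Of the 10, 2 passed, both lower in FCGR4+ cells, among them *Vcan*, a matrix proteoglycan (log2 fold change -1.44, edgeR adjusted P = 0.0602). Their sum was 916.2 to 2963 normalized CPM in FCGR4+ and 839.2 to 5904 in FCGR4- libraries. *Ly6c2*, whose product is the usual surface mark of these monocytes, did not pass, at -0.54 on the log2 scale (adjusted P = 0.641).

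*Cx3cr1* did not pass, with 3 of 4 mice higher on the FCGR4+ side. The normalized CPM were 19.3, 33.3, 21.0, and 8.28 in FCGR4+ and 11.9, 12.8, 15.8, and 15.2 in FCGR4- libraries of mice 1 to 4. FCGR4- libraries lay close together, whereas FCGR4+ libraries spread on both sides of them, with mouse 4 the lowest and mouse 2 the highest. The log2 fold change was 0.41 (SE 0.344, edgeR adjusted P = 0.692). Nonclassical monocytes carry both CX3CR1 and FCGR4, and of 10 of their genes 2 were called higher in FCGR4+ cells, *Cd300e* (log2 fold change 2.36, edgeR adjusted P = 0.0631) and *S1pr5* (4.01, adjusted P = 0.0527), while 5 of 10 had a log2 fold change below 0. *S1pr5* was rare, with 487 counts over the FCGR4+ libraries, 421 of them from mouse 1, and 28 over the FCGR4- libraries, where mice 3 and 4 lay below the floor of 3 counts, so the size of its fold change is uncertain. The sum of the 10 was 233.9 to 325.3 normalized CPM in FCGR4+ and 168.2 to 325.5 in FCGR4- libraries. *Ptgs1*, cyclooxygenase 1, was the gene most like *Cx3cr1* (r = 0.941), followed by *Ascc1* (r = 0.900) and *Cnot8* (r = 0.895).

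*Cxcr4* was likewise above its FCGR4- level in 3 of 4 mice and did not pass. Its normalized CPM were 26.9, 29.6, 86.9, and 37.2 in FCGR4+ and 19.1, 37.8, 49.2, and 27.2 in FCGR4- libraries of mice 1 to 4. It was higher in FCGR4+ cells of mice 1, 3, and 4 and lower in mouse 2, and the populations overlapped. The log2 fold change of 0.36 (SE 0.204, edgeR adjusted P = 0.598) did not pass. *2210408F21Rik* (r = 0.967), *Uimc1* (r = 0.962), and the thioredoxin gene *Txn1* (r = 0.959) were the genes most like it.

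*Ccrl2* moved in opposite directions in the pairs of mice. Its normalized CPM were 164.0, 333.1, 263.4, and 193.1 in FCGR4+ and 97.8, 310.1, 633.1, and 374.5 in FCGR4- libraries of mice 1 to 4. It was higher in FCGR4+ cells in mice 1 and 2 and lower in mice 3 and 4, which together gave a log2 fold change of -0.35 (SE 0.335, edgeR adjusted P = 0.730). Fitted alone, mice 1 and 2 gave 0.42 and mice 3 and 4 gave -1.13, neither past the threshold, and the difference between them was not tested. *Alkbh3* (r = 0.984), *Cebpb*, a transcription factor of myeloid cells (r = 0.976), and *Ralb* (r = 0.976) followed it most closely.

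*Ccr3* had the largest SE of the 9. Its normalized CPM were 13.3, 3.37, 12.9, and 9.57 in FCGR4+ and 28.8, 12.9, 5.38, and 10.9 in FCGR4- libraries of mice 1 to 4. Mouse 3 was higher in FCGR4+ cells and the others were lower, and the log2 fold change of -0.50 carried an SE of 0.492 (edgeR adjusted P = 0.732). Of 7 eosinophil genes, 3 had enough counts to be tested and none passed by edgeR (0 of 3 at an unadjusted P under 0.05, and 0 by DESeq2). *Prg3* had no count in any library, *Epx* and *Prg2*, which encode granule proteins, had none in FCGR4+ libraries, and the sum was 3.00 to 8.90 normalized CPM in FCGR4+ and 4.72 to 20.7 in FCGR4- libraries. Mast cell and basophil genes were lower in FCGR4+ cells by a wide margin, with 10 of 10 tested genes called (*Cpa3*, *Cma1*, *Tpsb2*, *Tpsab1*, *Mcpt4*, *Fcer1a*, *Ms4a2*, *Gata2*, *Hdc*, and *Kit*) and sums of 14.5 to 30.5 against 394.7 to 2171 normalized CPM. The basophil protease *Mcpt8* had no count in FCGR4+ libraries. The part of these cells in the *Ccr3* values was not tested. *Scaper* (r = 0.940), *BC024063* (r = 0.925), and *mt-Ta* (r = 0.906) were most like *Ccr3*.

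**Figure D2:**
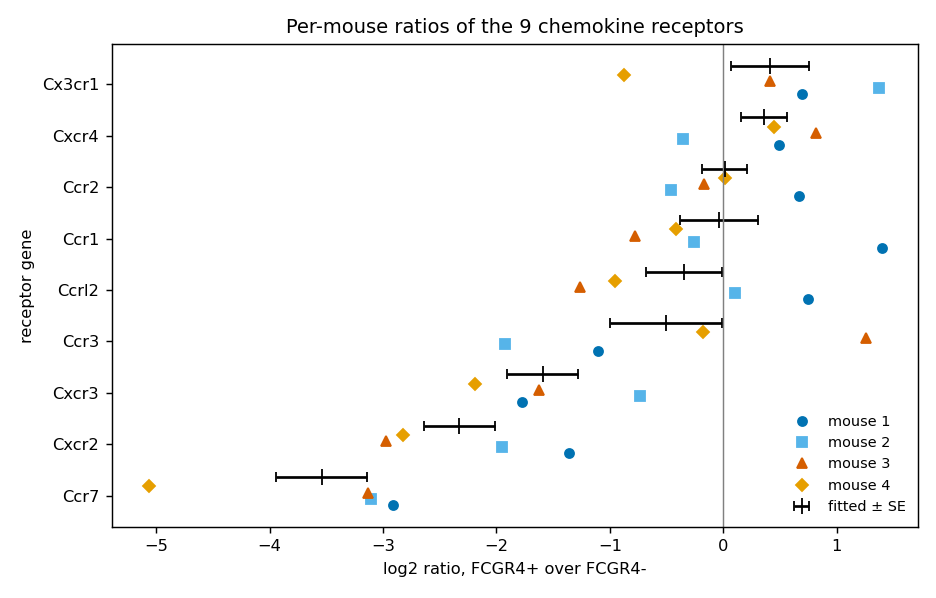
Log2 ratio of FCGR4+ over FCGR4- for the 9 receptor genes, with 1 symbol per mouse and the fitted log2 fold change ± SE from the paired edgeR fit (black). The 4 symbols of Ccr7, Cxcr2, and Cxcr3 lie left of 0, and the symbols of the other 6 genes lie on both sides.

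Levels of different receptors were compared per length, as normalized CPM per kb of exon. The libraries also held transcripts of other cells, whose part in this order was not tested. In FCGR4+ libraries the order was *Ccrl2* (91.8 ± 29.1, SD, n = 4), *Ccr2* (60.3 ± 31.6), *Ccr1* (59.6 ± 23.6), *Cxcr4* (25.0 ± 15.6), *Cx3cr1* (4.55 ± 2.27), *Ccr3* (2.99 ± 1.41), *Cxcr3* (1.37 ± 1.43), *Cxcr2* (0.729 ± 0.590), and *Ccr7* (0.658 ± 0.523). The only neighbors in this order whose ranges did not overlap were *Cxcr4* and *Cx3cr1*. In FCGR4- libraries the same 4 genes led, with *Ccrl2* at 136.2 ± 84.9, *Ccr1* at 78.2 ± 54.8, *Ccr2* at 61.6 ± 37.3, and *Cxcr4* at 18.4 ± 7.23. Here *Ccr7* came next (7.19 ± 3.93), before *Cxcr2* (4.79 ± 5.43), *Ccr3* (4.42 ± 3.07), *Cxcr3* (3.25 ± 1.77), and *Cx3cr1* (3.10 ± 0.414), and every pair of neighbors overlapped.

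Among 17 other receptors of the family, 10 had enough counts to be tested and 2 passed, both atypical receptors and both lower in FCGR4+ cells. *Ackr2*, a scavenger of inflammatory CC chemokines, had 10 counts over the FCGR4+ libraries and 337 over the FCGR4- libraries (0.0441 ± 0.0613 against 1.45 ± 1.16 normalized CPM, SD, n = 4 each; log2 fold change -5.09, edgeR adjusted P = 0.0994). The FCGR4+ mean sat at the floor of 3 counts, and the ratio of the summed counts, FCGR4- over FCGR4+, after scaling each sum to its normalized library size was 33 with a 95% exact binomial interval of 17.7 to 69.5, for counting error only. With 1 mouse left out the log2 fold change of *Ackr2* ran from -5.81 to -4.18. It passed without mouse 3 and did not when any other mouse was left out (adjusted P up to 0.243). *Ackr3*, a scavenger of CXCL12, had values of 1.80, 3.29, 6.55, and 3.15 normalized CPM in FCGR4+ and 9.19, 4.97, 26.4, and 9.32 in FCGR4- libraries of mice 1 to 4. It was lower in each mouse (log2 fold change -1.64, edgeR adjusted P = 0.0900), and passed without mouse 2 and not without mouse 1, 3, or 4 (adjusted P 0.224 to 0.236). Neither atypical receptor passed without the mouse block (edgeR adjusted P of 0.170 and 0.453). *Cmklr1*, the signaling receptor of chemerin, did not pass, at 0.10 on the log2 scale (adjusted P = 0.828). *Xcr1*, a receptor of cross-presenting dendritic cells, had 56 counts over the FCGR4+ and 865 over the FCGR4- libraries and was lower in 4 of 4 mice with no overlap. Its log2 fold change of -4.60 (SE 1.22) did not pass by edgeR (adjusted P = 0.227), and it was called lower by DESeq2 (adjusted P = 0.00811), by edgeR's newer method, and with no filter on low counts. The median of the 10 was -1.91.

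Ligands of the 9 receptors were measured in the same libraries, and all 23 on the list were tested. Of these, 4 passed, 2 higher and 2 lower in FCGR4+ cells, and the median log2 fold change was -0.22. *Cxcl9*, an interferon-induced ligand of CXCR3, was 31.6, 7.40, 11.9, and 9.65 normalized CPM in FCGR4+ and 8.51, 2.44, 4.73, and 3.53 in FCGR4- libraries of mice 1 to 4. It was higher in each mouse (log2 fold change 1.57, SE 0.184, edgeR adjusted P = 0.0214) and did not pass without mouse 1 (adjusted P = 0.113). *Cxcl10* and *Cxcl11*, the other ligands of CXCR3, had log2 fold changes of -0.05 (adjusted P = 0.960) and -0.24 (adjusted P = 0.915) and did not pass. *Ccl8*, a CC chemokine of monocytes, was 113.4, 115.8, 1549, and 755.8 against 47.5, 89.3, 444.2, and 215.0 normalized CPM (log2 fold change 1.32, adjusted P = 0.0994), and passed only without mouse 2 when each mouse was left out, with adjusted P of 0.224 to 0.304 without mouse 1, 3, or 4.

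The ligands called lower were *Ccl11*, which binds CCR3, and *Cxcl12*, which binds CXCR4. *Ccl11*, eotaxin, was 2.23, 1.58, 2.79, and 1.89 normalized CPM in FCGR4+ and 8.26, 3.62, 10.5, and 4.37 in FCGR4- libraries of mice 1 to 4, with no overlap (log2 fold change -1.56, edgeR adjusted P = 0.0633). *Cxcl12* fell by 1.25 on the log2 scale (adjusted P = 0.0967) and was lower in 4 of 4 mice. Neither passed with any 1 mouse left out, with adjusted P of 0.140 to 0.213 for *Ccl11* and 0.109 to 0.254 for *Cxcl12*, each lower in these fits. Genes of fibroblasts and other stromal cells, which the CD45+ gate would remove, were lower in FCGR4+ cells as well. Of 13 such genes, a list drawn up after the values were seen, 13 were tested, 13 were lower in 4 of 4 mice, and 8 passed (*Pdgfra*, *Pdgfrb*, *Col1a2*, *Col3a1*, *Col6a1*, *Col6a2*, *Lum*, and *Fap*). *Col6a1*, a collagen VI chain, had -2.22 on the log2 scale (edgeR adjusted P = 0.0633) and *Fap*, a protease of activated fibroblasts, -2.71 (adjusted P = 0.0949). The 13 genes summed to 159.3 to 318.7 normalized CPM in FCGR4+ and 456.4 to 1684 in FCGR4- libraries, and none was at 0 in a whole population. The log2 ratio of the sums was -2.60, -0.98, -2.40, and -1.24 in mice 1 to 4, beside -1.88, -1.18, -1.89, and -1.19 for *Ccl11*. Mouse 2 had the smallest decrease in the sum and in each of *Ccl11*, *Cxcl12* (-0.59), and *Ackr3* (-0.59). The part of stromal transcripts in these 3 differences was not tested. None of the 4 ligand calls was made without the mouse block (adjusted P 0.196 to 0.919 by edgeR). The most abundant ligands did not pass. *Ccl6* was at 4184 ± 1243 against 3365 ± 626 normalized CPM (log2 fold change 0.28), *Ccl9* at 1752 ± 546 against 1569 ± 198 (0.11), *Cxcl2*, a ligand of CXCR2, at 777 ± 297 against 976 ± 627 (-0.19), and *Ccl7*, a ligand of CCR2, at 510 ± 634 against 433 ± 512 (-0.27; SD, n = 4 each).

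**Figure D3:**
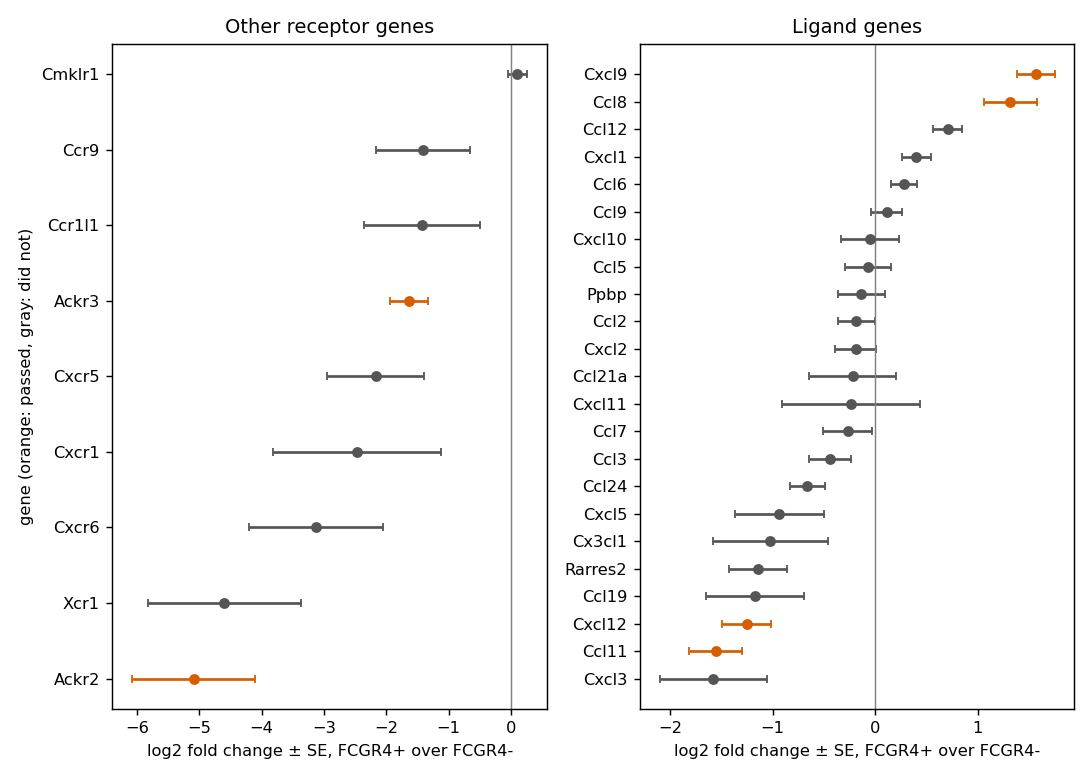
Log2 fold change ± SE (paired edgeR fit, FCGR4+ over FCGR4-) of 9 of the 10 other chemokine receptor genes tested and of the 23 ligand genes, with genes past the threshold in orange. Ackr2 and Ackr3 passed on the left, and Cxcl9, Ccl8, Cxcl12, and Ccl11 on the right.

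Genes that act downstream of the receptors gave 1 call. Of 30 such genes (G protein subunits, arrestins, receptor kinases, RGS proteins, and effectors), 30 were tested, 13 had a log2 fold change above and 17 below 0, and the median was -0.09. *Rgs16*, which speeds the shutdown of G protein signaling, was the 1 gene that passed, with 2 counts over the FCGR4+ libraries and 151 over the FCGR4- libraries (edgeR adjusted P = 0.0842). The ratio of FCGR4- over FCGR4+, with the sums scaled in the same way, was 74 with a 95% exact binomial interval of 20.1 to 616, which covers counting error only, and the gene did not pass with any 1 mouse left out (adjusted P 0.154 to 0.257). The most abundant were *Rgs1* (log2 fold change 0.41, edgeR adjusted P = 0.555), *Gnai2*, the main inhibitory G protein subunit of leukocytes (0.01, adjusted P = 0.990), the GTPase *Rac1* (0.07, adjusted P = 0.877), and *Gnb1* (0.09, adjusted P = 0.819), none of which passed.

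Other marker lists gave the makeup of the libraries. Of 8 B cell genes, 6 were tested and 1 passed by edgeR, with sums of 12.02 to 20.9 and 8.47 to 39.3 normalized CPM, and of 6 plasmacytoid dendritic cell genes none of the 5 tested passed by edgeR (2 of 5 at an unadjusted P under 0.05, and 2 by DESeq2), with sums of 46.3 to 240.5 and 42.2 to 136.1 and *Klk1* without a count in FCGR4- libraries. These plasmacytoid sums consisted mostly of *Bst2* (mean 137.7 in FCGR4+ and 83.4 in FCGR4- cells). DESeq2 called *Bst2* higher and *Ly6d* lower in FCGR4+ cells. *Siglech*, *Ccr9*, and *Ly6d* were lower in 4 of 4 mice, and *Bst2* was higher in 4 of 4. The haptoglobin receptor *Cd163*, on the lists of macrophages and of resident macrophages, was the only gene of either list to pass by edgeR (log2 fold change -0.96, adjusted P = 0.0602). DESeq2 called 9 of 13 macrophage genes, 8 of them higher in FCGR4+ cells and *Cd163* lower, and 3 of 8 genes of resident macrophages. By sign, 11 of 13 macrophage genes had a log2 fold change above 0, and 9 of 13 were higher in 4 of 4 mice. The 8 genes of resident macrophages summed to 681.9 to 1190 and 694.6 to 1238 normalized CPM.

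**Figure D4:**
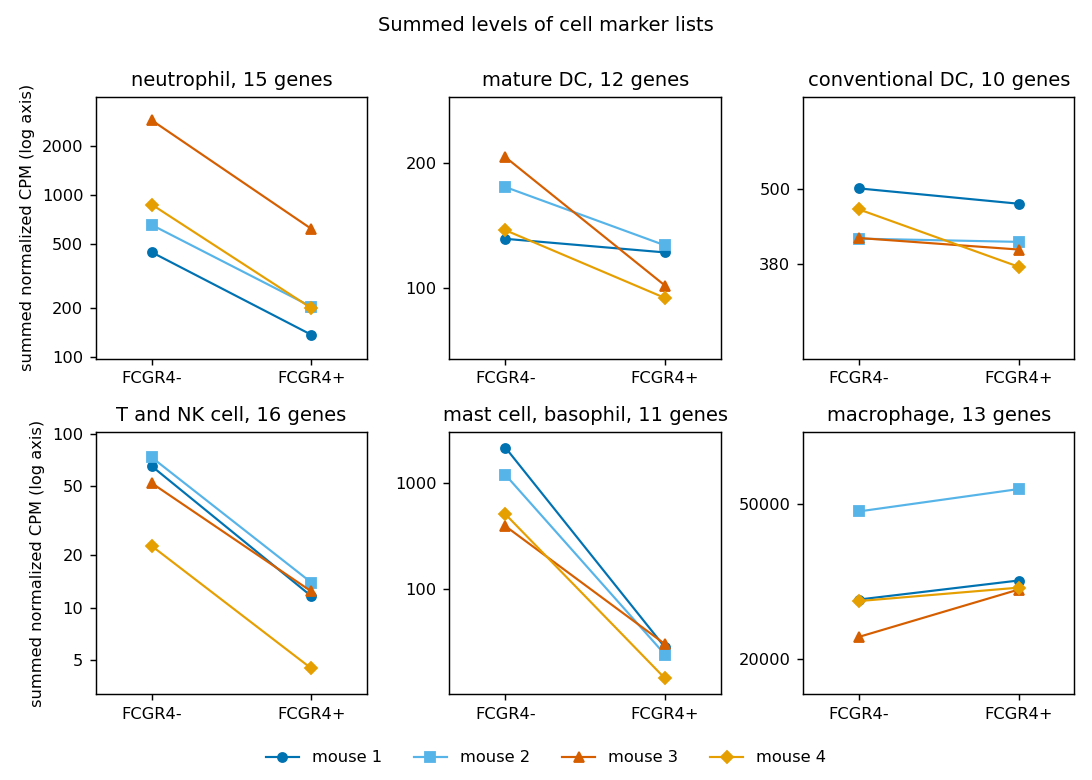
Summed normalized CPM of 6 lists of marker genes on a log axis (each panel has its own range), with 1 line per mouse from its FCGR4- to its FCGR4+ library. Among these 6 lists, the neutrophil, T and NK cell, and mast cell and basophil sums fall in all 4 mice by the widest margins. The macrophage sum, mostly Lyz2, is higher in FCGR4+ cells in all 4. Other lists, such as the stromal genes, are not shown.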

How the data were processed

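RNA of sorted eWAT macrophages was sequenced by the authors, who mapped reads to mm10 with STAR and counted read pairs per gene (GENCODE M18) with featureCounts 1.6.3, at every place of a multimapping pair and without strand. The deposited values are these counts, unnormalized, and 0 per-sample columns were left out. Samples were grouped by population and mouse from the labels. Genes reaching 10 counts in 4 or more libraries were normalized by TMM and tested with edgeR 4.0.16 (R 4.3.3), quasi-likelihood, with mouse as a block as in the study's model, Benjamini-Hochberg adjustment over all 17095 genes and a threshold of 0.1. SE is the log2 fold change over the square root of F. Per-mouse ratios use log2 CPM with a prior count of 2. Same-mouse libraries deviated together from the means of their populations (r = 0.291 to 0.428). Values for other mice were at most 0.0116, and this centering itself lowers them. Within a population, no 2 libraries were duplicates (chi-square per degree of freedom at least 83.6). Named genes were the 9 receptors, called and up to 4 most abundant genes of each list, the 3 most correlated genes with at least 1 mean CPM, and called or absent markers. Genes named outside this rule (*Cxcl10*, *Cxcl11*, *Ly6c2*, *Ly6g*, *Adgre1*, *Csf1r*, *Cd68*, *Lyz2*, *Irf8*, *Clec10a*, *Itgae*, *Relb*, *Birc3*, *Bst2*, *Siglech*, *Ccr9*, and *Ly6d*) and the list of stromal genes were chosen after their values were seen. Receptors, lists, and alternatives (DESeq2 1.42.0, other scalings, filters, left-out mice) were chosen with earlier results of these data known. Depth limits precision at low counts. Some genes within the naming rule are not reported here.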

Additional observations from a re-analysis of the deposited data

Results flagged for a closer look

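Values of each receptor, and ratios of the called genes, were screened for 1 mouse that stood apart from the other 3 by Dixon's criterion, in 35 groups of 4 values. About 1 in 20 such groups passes it by chance, and 4 did. The log2 ratio of *Ccr7* in mouse 4 was -5.07, against -3.13 to -2.91 in the others (gap over range 0.900). *Cxcr2* in FCGR4+ cells of mouse 3 was 4.89 normalized CPM, against 1.08 to 1.70 (0.837). *Cxcr3* in FCGR4+ cells of mouse 2 was 6.05 normalized CPM, against 0.726 to 1.48 (0.858). The log2 ratio of *Rgs16* in mouse 1 was -2.92, against -4.52 to -4.38 (0.913), and this gene had 2 counts over the FCGR4+ libraries.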

How the results depend on the processing

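The 4 mice were compared within mouse, and the pairing changed the calls. With no replicate block, edgeR called 48 genes, 0 of the 9 receptors (2 of 9 lower at an unadjusted P under 0.05), 0 other receptors (4 of 10), and 0 ligands (3 of 23). The number of genes called, 217, was 1024 by DESeq2, 629 by edgeR's newer method, 1054 with no filter, 76 at a threshold of 0.05, 115 and 72 in mice 1 and 2 or 3 and 4 alone, and 78 to 162 with 1 mouse left out. Of the receptors, 1 was called in each pair of mice alone and 1 to 2 with 1 mouse left out. Other receptors numbered 5 by DESeq2 and with no filter, 4 by the newer method, 1 with at least 10 counts in every library and in mice 1 and 2, 0 in mice 3 and 4 and at 0.05, and 0 to 1 with 1 mouse left out. Ligands numbered 7 by DESeq2, 8 with no filter, 1 in either pair of mice and at 0.05, and 0 to 2 with 1 mouse left out. Signaling genes numbered 2 by DESeq2 and 0 with 10 counts in every library, in either pair, at 0.05, and with any mouse left out. Those counts of 0 fell where 1 to 12 genes of the list had an unadjusted P under 0.05. Requiring 10 counts in every library left 3 of 10 other receptors and 29 of 30 signaling genes to test, without *Ackr2* and *Rgs16*. For the other settings the cause was not tested.

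Signs turned for some receptors that did not pass. *Ccr2* was -0.031 with no block, -0.079 by library size alone, -0.005 with 10 counts in every library, -0.10 in mice 3 and 4, and -0.21 to 0.20 with 1 mouse left out. *Ccr1* was 0.57 in mice 1 and 2 and -0.49 to 0.21 with 1 mouse left out, and *Ccr3* was 0.52 in mice 3 and 4 and -1.08 to 0.006. *Ccrl2* was 0.42 in mice 1 and 2, and *Cx3cr1* -0.25 in mice 3 and 4. *Ccr7* (-4.04 to -3.06), *Cxcr2* (-2.94 to -1.68), *Cxcr3* (-1.96 to -1.25), and *Cxcr4* (0.068 to 0.62) kept their sign in all 13 alternative fits.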
